A study of Mus musculus with 42 samples.

Results

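The genes described here are 10 feedback inhibitors and targets of canonical Wnt signaling in the mouse colon: *Axin2*, *Rnf43*, *Znrf3*, *Notum*, *Wif1*, *Nkd1*, *Cxxc4*, *Sp5*, *Lef1*, and *Tcf7*. They were found by symbol among the 20449 genes of 9 tables of bulk RNA sequencing, and each of the 10 was listed in all 9 tables. The list was drawn from general knowledge of the pathway with earlier results of these data known, and *Wif1* and *Cxxc4* had already been labeled by the study in a heat map of the same distal *Mtg16*-null libraries, so their values there are not independent evidence. The 42 libraries in 14 groups came from C57/BL6 mice of at least 8 weeks. MTG16, encoded by *Cbfa2t3*, is a transcriptional corepressor that binds E proteins. The *Mtg16*-null mice lack it, and P209T homozygous (T/T) mice carry a proline-to-threonine substitution, made with CRISPR, that weakens binding to the E proteins E2A and HEB. Each line was bred as a separate colony with its own WT littermates. Baseline crypts, chelated from 5 cm of proximal or distal colon, were sequenced from 2 WT and 2 *Mtg16*-null mice of the null colony and 2 WT and 2 T/T mice of the T/T colony in the proximal colon, and from 4 WT, 4 *Mtg16*-null, 3 WT, and 4 T/T mice in the distal colon. Distal crypts after injury came from mice given 2% dextran sodium sulfate (DSS) for 5 days and water for 4 days, with 3 WT and 4 *Mtg16*-null mice of the null colony and 3 WT and 3 T/T mice of the T/T colony. Distal tumors of 3 WT and 3 T/T mice followed azoxymethane (AOM) at 10 mg/kg and 3 cycles of 3% DSS, and these were homogenized whole, so that they include stroma.

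In canonical Wnt signaling, a Wnt ligand at the cell surface stops the destruction complex from degrading β-catenin, which then binds TCF/LEF factors at target genes. Several of the targets act back on the pathway. In the colon this signaling is strongest at the crypt base, where it maintains stem cells, and its constitutive activation is a hallmark of colon tumors. *Axin2* encodes a scaffold of the destruction complex and is the most widely used target gene. *Rnf43* and *Znrf3* encode membrane E3 ubiquitin ligases that remove Frizzled receptors from the surface. *Notum* encodes a secreted enzyme that strips the lipid from Wnt ligands, and *Wif1* a secreted protein that binds the ligands. *Nkd1* and *Cxxc4* encode proteins that bind Dishevelled, the adaptor between receptor and destruction complex. *Sp5* encodes a transcription factor induced by Wnt, and *Lef1* and *Tcf7* encode the DNA-binding partners of β-catenin, which are also T cell factors.

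In GRCm38, 5 of the 10 genes lay on chromosome 11, which holds 7.82% of the 20449 listed genes. RefSeq promoter windows, from 250 bases before to 50 after a start, were found for 8 of the 10 genes (13 windows), and not for *Znrf3* and *Notum*. The core of the TCF/LEF motif, CTTTGA on either strand, was matched in 2 of the 13 windows, that of *Sp5* and that of an internal start of *Lef1*, each with 2 matches. Of 32851 windows over all genes, 16% held at least 1 such match and 1.73% held 2 or more. The E box, CANNTG (its own reverse complement), to which E proteins bind, was found in 10 of the 13 windows, against 72.3% of all windows. The bases upstream of the start are shown for the windows with the TCF/LEF core, for *Wif1*, whose levels in mutant and WT distal crypts lay apart at baseline, and for *Axin2*, the standard target. Capitals mark a match to CTTTGA, in either orientation, or to CANNTG. A match is a description of the letters and not a shown binding site, and these data do not measure binding.
Sp5, chr2:70474673-70474922 (plus strand, GRCm38, RefSeq): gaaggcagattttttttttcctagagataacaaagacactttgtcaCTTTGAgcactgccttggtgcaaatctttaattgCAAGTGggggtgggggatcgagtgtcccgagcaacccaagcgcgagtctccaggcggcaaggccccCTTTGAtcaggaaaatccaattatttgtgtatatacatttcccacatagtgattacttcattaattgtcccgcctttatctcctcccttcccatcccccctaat
Lef1, internal start, chr3:131156044-131156293 (plus strand, GRCm38, RefSeq): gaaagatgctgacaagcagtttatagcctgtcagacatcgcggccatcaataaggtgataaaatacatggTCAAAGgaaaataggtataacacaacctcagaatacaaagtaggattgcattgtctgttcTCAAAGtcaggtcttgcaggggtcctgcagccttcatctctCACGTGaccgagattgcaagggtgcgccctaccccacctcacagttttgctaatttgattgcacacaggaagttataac
Wif1, chr10:121033754-121033959 (plus strand, GRCm38, RefSeq): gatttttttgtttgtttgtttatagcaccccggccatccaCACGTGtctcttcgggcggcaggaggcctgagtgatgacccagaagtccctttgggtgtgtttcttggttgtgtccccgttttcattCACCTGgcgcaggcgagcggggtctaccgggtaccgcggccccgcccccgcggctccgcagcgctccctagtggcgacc
Axin2, chr11:108920099-108920348 (plus strand, GRCm38, RefSeq): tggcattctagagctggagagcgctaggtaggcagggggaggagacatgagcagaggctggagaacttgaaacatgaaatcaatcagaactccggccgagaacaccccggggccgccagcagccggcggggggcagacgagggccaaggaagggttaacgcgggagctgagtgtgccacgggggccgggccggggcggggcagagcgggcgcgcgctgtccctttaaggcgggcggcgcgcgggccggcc
In *Sp5* the TCF/LEF cores began 204 and 104 bases before the start, and in *Lef1* 180 and 120 bases before it. *Wif1* had E boxes 210 and 123 bases before its RefSeq start (position 121034004) and no TCF/LEF core, and its letters are shown only up to the first annotated exon, 44 bases short of that start. The *Axin2* window had neither motif.

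The libraries for which reads could be recovered held 32231389 to 74661922 reads in genes (40 libraries, median 46168060). Epithelial markers (*Epcam*, *Vil1*, and 6 others) summed to 14860 to 24850 reads-per-million (RPM) in the crypt groups and to 9687 to 15160 in tumors, and 8 fibroblast markers to 0.571 to 80.5 RPM in crypts and 2705 to 3730 in tumors. *Cbfa2t3* was at 9.69 to 24.0 RPM in distal *Mtg16*-null crypts and 23.0 to 39.0 in their WT littermates (log2 fold change −1.11 ± 0.29 SE, adjusted p = 0.303), and at 7.48 to 11.2 against 33.1 to 46.5 after DSS, where the difference passed the test (log2 fold change −2.02 ± 0.19 SE, adjusted p = 0.00292, limma). The library labeled *Mtg16*-null replicate 2 at distal baseline held the 24.0 RPM, inside the WT range, where the other 3 held 9.69 to 15.2. The enteroendocrine markers of that library summed to 720 RPM, the most among distal *Mtg16*-null crypts, against 185 to 225 in their WT littermates. Without that library the baseline difference in *Cbfa2t3* passed (−1.33 ± 0.23 SE, adjusted p = 0.0358). The same library stood apart for *Wif1*, *Sp5*, and *Cxxc4*, whose results are also given without it. Library names begin with a number whose meaning the labels do not give. Those numbers differed between baseline, DSS and tumor libraries, so that treatment and name prefix cannot be told apart, and both segments were sequenced under prefix 4149 alone.

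Across the 14 groups, the tumors stood above all crypts for 9 of the 10 genes. *Axin2* averaged 352 ± 66.1 RPM in WT tumors and 312 ± 88.3 in T/T tumors (SD, n = 3 each), and between 30.7 ± 2.86 (*Mtg16*-null after DSS, n = 4) and 42.2 ± 4.60 (proximal *Mtg16*-null, n = 2) in the 12 crypt groups. The values of the 2 tumor groups overlapped, and so did those of every pair of crypt groups next to each other in the order of their means. *Rnf43* lay at 31.6 to 57.2 RPM in 36 crypt libraries and 161 to 272 in 6 tumors, and *Znrf3* at 6.0 to 13.6 against 59.0 to 82.1. *Tcf7* lay at 3.24 to 8.64 RPM in crypts and 34.8 to 69.1 in tumors. The remaining inducible genes were scarce in crypts. *Notum* reached at most 0.367 RPM in any crypt library and was at 114 to 229 in tumors, and *Lef1* reached 0.803 in crypts and was at 19.6 to 28.9 in tumors. *Nkd1* reached 1.59 RPM in crypts against 331 to 535 in tumors, *Wif1* 4.30 against 252 to 422, and *Sp5* 5.03 against 38.5 to 97.9. *Cxxc4* was the exception, at 0.281 to 3.83 RPM in crypts and 2.23 to 3.43 in tumors, and its highest group mean was that of distal *Mtg16*-null crypts (3.34 ± 0.766 RPM, SD, n = 4).

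**Figure D1:**
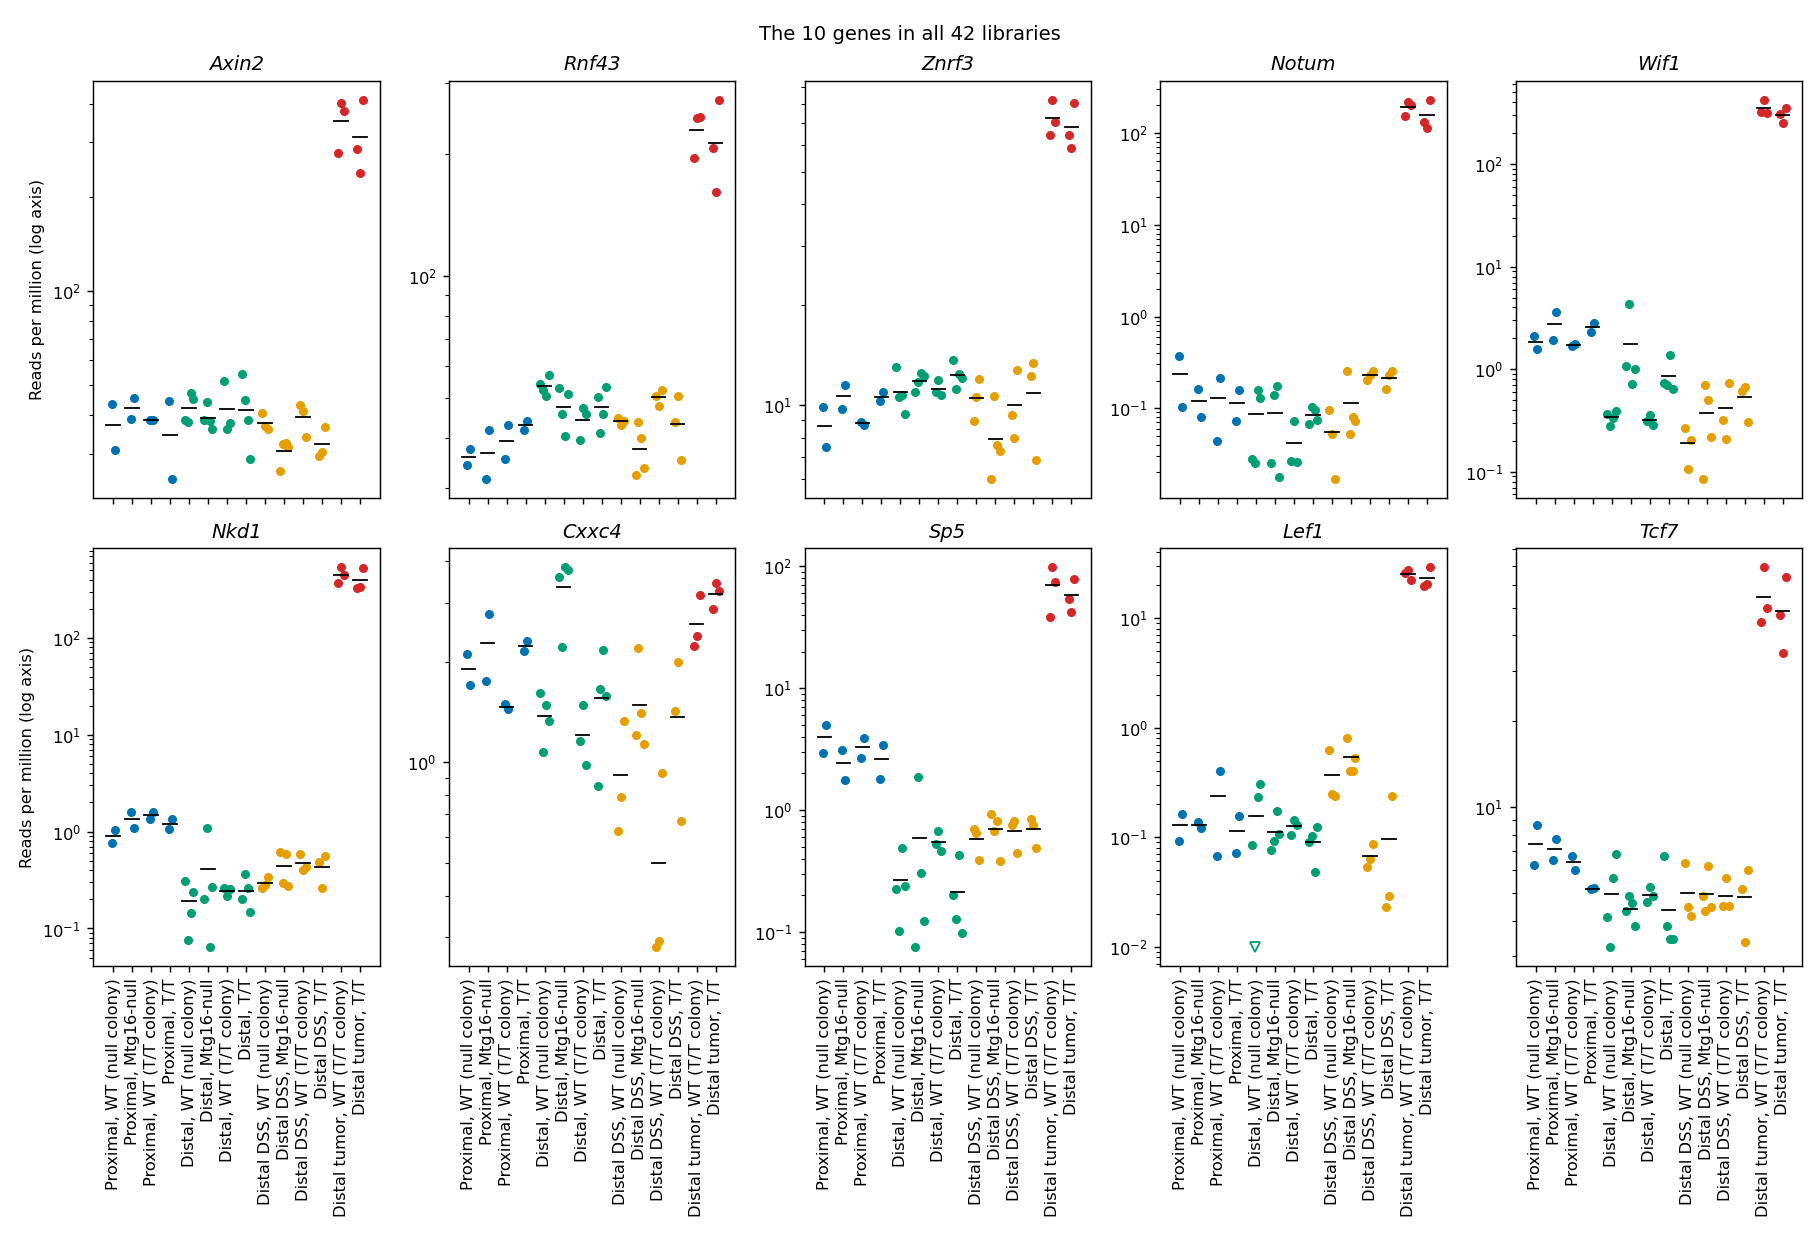
Level of the 10 Wnt feedback and target genes in each of 42 libraries, in RPM on a log axis, with 1 column of points per group (green, baseline distal; blue, baseline proximal; orange, after DSS; red, tumors). For 9 genes the 6 tumor libraries sit above all 36 crypt libraries, while *Cxxc4* overlaps at 2.23 to 3.43 in tumors and 0.281 to 3.83 in crypts.

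Feedback genes differed along the WT colon. Distal crypts had less *Wif1*, *Nkd1*, *Sp5*, and *Tcf7* and more *Rnf43* and *Znrf3* than proximal crypts (7 distal and 4 proximal libraries of both colonies, values as counts normalized within the table). The labels do not say whether proximal and distal libraries share mice, and the tests between segments treated them as independent. Genes had to average at least 10 normalized counts to be tested, and of the 8 members that did, 6 passed the test (adjusted p under 0.05, limma), 2 higher and 4 lower in distal crypts, where 42.1% of all 13841 genes tested passed. Among the 4, *Nkd1* averaged 9.58 normalized counts distally and reached the minimum only through the proximal libraries, so its call adds no support to the count. The median log2 fold change was −0.48 over the 8 members and 0.005 over all genes.

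*Wif1*, the secreted ligand-binding inhibitor, had 78.6, 80.2, 91.6, and 73.7 normalized counts in the proximal libraries and 12.4 to 18.3 (median 14.5) in the distal libraries. No distal library came near a proximal one, and *Wif1* was lower by 2.38 ± 0.19 on the log2 scale (log2 fold change −2.38, SE 0.19, adjusted p = 2.59e-07; exact permutation p = 0.00303, two-sided, the smallest possible). *Sp5*, the Wnt-induced transcription factor, had 125, 177, 127, and 238 proximal and 4.51 to 29.3 (median 20.8) distal normalized counts (log2 fold change −3.34 ± 0.41 SE, adjusted p = 1.88e-05). *Nkd1* had 63.1, 72.5, 33.5, and 49.4 proximal and 3.38 to 14.1 (median 11.1) distal normalized counts (log2 fold change −2.43 ± 0.35 SE, adjusted p = 8.1e-05). Enteroendocrine markers summed to 295.9 to 408.3 RPM in the proximal and 185 to 239.6 in the distal WT libraries, without overlap, with 4 of 8 lower, 2 higher and none at 0. Goblet cell markers summed to 5338 to 6597 RPM proximally and 10380 to 18590 distally (3 of 5 higher, 1 lower). Myeloid markers summed to 71.6 to 79.2 and 96.0 to 159.6 RPM (4 of 7 tested higher, 1 lower). The part of these lists in the member values was not tested. *Wif1*, *Sp5*, and *Nkd1* did not overlap between segments, and *Wif1* and *Sp5* also passed the test among the 4 libraries under prefix 4149.

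The remaining differences were small. *Rnf43* was at 1648, 1956, 1482, and 1767 normalized counts proximally and 1668 to 2677 (median 2198) distally (log2 fold change 0.36 ± 0.11 SE, adjusted p = 0.0231), and the segments overlapped. *Znrf3*, the related ligase, was at 415, 397, 428, and 354 proximally and 442 to 589 (median 467.9) distally, without overlap in these units but with it in RPM (log2 fold change 0.30 ± 0.10 SE, adjusted p = 0.0251). *Tcf7* went the other way, with 314, 274, 272, and 408 proximal and 143 to 321 (median 218) distal normalized counts (log2 fold change −0.54 ± 0.19 SE, adjusted p = 0.0344), again with overlap. Within prefix 4149, *Rnf43* (log2 fold change 0.58, adjusted p = 0.0653), *Znrf3* (0.22, adjusted p = 0.535), and *Tcf7* (−0.25, adjusted p = 0.655) did not pass, and with the prefix as a covariate *Znrf3* (0.356) and *Tcf7* (0.567) did not. *Rnf43* lost its call without proximal replicate 1 of the T/T colony (adjusted p = 0.0599) or of the null colony (0.0824), and *Znrf3* without proximal replicate 2 of the T/T colony (0.055) or of the null colony (0.0901). *Tcf7* lost it without proximal replicate 1 of the T/T colony (adjusted p = 0.0713) or replicate 2 of the null colony (0.129), and without distal replicates 1 (0.0609) or 2 (0.052) of the null colony or 1 of the T/T colony (0.0563). *Tcf7* is also a T cell gene, and 6 listed T cell markers summed to 23.1 to 35.2 RPM in the proximal and 3.5 to 14.1 in the distal libraries, with 5 of 6 lower in distal crypts and none of the 6 at 0. Their part in the *Tcf7* difference was not tested, and in bulk crypts fewer cells of a type and less RNA per cell cannot be told apart.

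*Axin2* had 1790, 1757, 1885, and 1460 proximal and 1579 to 2178 (median 1740) distal normalized counts, and its difference was within the spread of the libraries (log2 fold change 0.10, 95% confidence interval −0.12 to 0.33, adjusted p = 0.45). *Cxxc4* was at 69.3, 65.7, 91.6, and 80.5 proximally and 43.9 to 73.0 distally and did not pass (log2 fold change −0.41, adjusted p = 0.0873). *Notum* and *Lef1* were under the minimum of 10 and were not tested (1.11 to 6.93 and 0 to 14.3 normalized counts distally, 2.07 to 15.9 and 3.10 to 18.4 proximally).

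**Figure D2:**
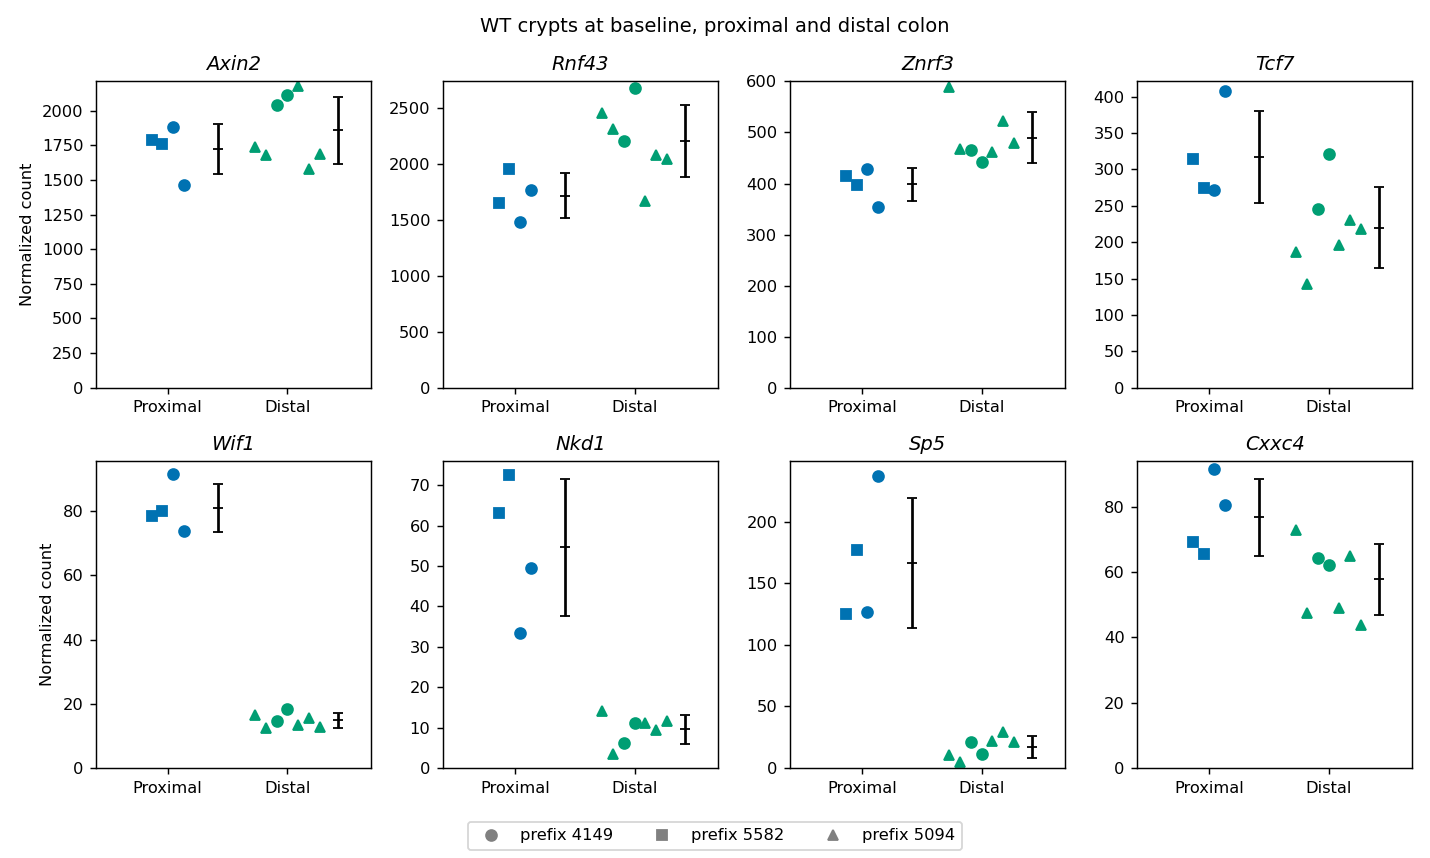
Normalized counts of 8 members in WT crypts of the proximal (blue, n = 4) and distal (green, n = 7) colon, with each library marked by its name prefix and bars for the mean and SD. *Wif1*, *Nkd1*, and *Sp5* are lower in every distal library than in any proximal library, while *Axin2* overlaps.

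Other genes of the pathway are given by list beside the 42.1% of all genes that passed between segments, with no test of a list. A gene that met the count minimum only through the segment where it was high had to differ. Some ligand and inhibitor genes did so, and these counts are descriptions that add no support. All 7 ligand genes tested differed, 4 higher and 3 lower in distal crypts, among them *Wnt6* (log2 fold change 1.62 ± 0.52 SE). *Wnt5a*, a mostly noncanonical ligand, was at 1.17 to 4.06 RPM proximally and 0 to 0.0283 distally, so that it was tested through the proximal libraries, and *Wnt8b* was at 0.396 to 1.53 RPM in distal crypts and at 0 in the proximal WT crypts of the null colony. Of 18 receptor genes, 7 were higher and 5 lower, with *Ror1* higher (3.10 ± 0.18 SE) and *Fzd3* at 22.2 to 32.6 RPM proximally and 0.128 to 0.413 distally. Among 7 other inhibitors tested, 2 were higher and 3 lower: the secreted Frizzled-related gene *Sfrp1* was at 0.841 to 2.59 RPM proximally and 0 to 0.0766 distally, and its relative *Sfrp5* at 0 to 0.0445 proximally and 0.155 to 0.707 distally, each tested through the segment where it was high. Of 18 other canonical targets, 3 were higher and 7 lower, with the matrix metalloproteinase *Mmp7* (−5.07 ± 0.31 SE) lower and *Smoc2*, a stem cell gene, higher (0.88 ± 0.11 SE). Of 14 nuclear TCF partners 6 were higher and 6 lower, and of 19 genes of the destruction complex and Dishevelled 3 were higher and 3 lower, a smaller share than that of all genes. The median log2 fold changes of the 6 lists ran from −0.06 (targets) to 0.24 (ligands), against 0.005 over all genes.

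At baseline, the largest differences between *Mtg16*-null and WT mice were those of *Wif1* and *Cxxc4* in distal crypts, and neither passed the test over all genes. *Wif1* had 17.0, 12.7, 14.9, and 18.8 normalized counts in WT and 48.7, 196, 31.3, and 45.8 in *Mtg16*-null distal crypts. All *Mtg16*-null values lay above all WT values, and the library labeled replicate 2 was far above the other 3. *Cxxc4* had 74.7, 48.6, 66.1, and 63.5 in WT and 163, 100, 168, and 173 in *Mtg16*-null crypts, again without overlap, and here that library was the lowest of the 4. The log2 fold change was 1.89 ± 0.53 (SE, adjusted p = 0.388) for *Wif1* and 1.23 ± 0.24 (SE, adjusted p = 0.116) for *Cxxc4*, with an exact permutation p of 0.0286 for each, the smallest that 4 against 4 libraries allow. None of the 8 members tested passed, against 0.239% of 13831 genes (2 members at an unadjusted p under 0.05; 0 with edgeR and 2, *Wif1* and *Cxxc4*, with DESeq2). Without the library labeled *Mtg16*-null replicate 2, *Cxxc4* passed (log2 fold change 1.41, adjusted p = 0.0141) and *Wif1* did not (1.34, adjusted p = 0.104). Within library name prefixes 4149 and 5094, with 2 libraries per group, the log2 fold changes were 1.13 and 2.65 for *Wif1* and 1.38 and 1.08 for *Cxxc4*. The library labeled *Mtg16*-null replicate 2 also held the most *Sp5* (84.8 normalized counts, against 3.48 to 13.3 in the other 3), the most *Nkd1* (50.2, against 2.84 to 12.3) and the highest sum of T cell markers (26.9 RPM, against 7.56 to 9.88). In RPM its *Sp5* (1.86) and *Nkd1* (1.10) lay within the range of proximal crypts (1.775 to 5.025 and 0.771 to 1.59). Its T cell sum did so too (23.1 to 35.2), and its *Wif1* (4.30) was above that range (1.56 to 3.61). Its goblet cell sum (15550) was above the proximal range (5338 to 10420) and within that of distal *Mtg16*-null crypts (9433 to 16570). A part of the segment in these values was not tested.

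Enteroendocrine markers moved in the same libraries. The 8 markers (*Chga*, *Neurod1*, and others) summed to 455 to 720 RPM in distal *Mtg16*-null and 185 to 225 in WT crypts, with 4 of 8 higher, none lower and none at 0, and their part in the *Wif1* and *Cxxc4* values was not tested. Among the other members, *Axin2* had 1666 to 2004 normalized counts against 1723 to 2158 (log2 fold change −0.12, 95% confidence interval −0.36 to 0.11), *Rnf43* differed by −0.20 (−0.46 to 0.06), *Znrf3* by 0.10 (−0.17 to 0.36), and *Tcf7* by −0.14 (−0.69 to 0.41), all on the log2 scale. The intervals were wide for *Nkd1* (0.52, −1.27 to 2.30) and *Sp5* (0.25, −1.81 to 2.30), and *Sp5* changed sign without the library labeled replicate 2 (−0.63 ± 0.59 SE, adjusted p of 1). Of the pathway lists, 1 of 18 other canonical targets passed, *Prox1*, a transcription factor also of enteroendocrine cells (log2 fold change 1.83 ± 0.24 SE, adjusted p = 0.026), and none of 6 ligand, 18 receptor, 5 inhibitor, 19 destruction complex, and 14 nuclear genes did.

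In distal T/T crypts, *Wif1* was again above WT in every library, with 28.0, 27.6, 55.3, and 26.5 normalized counts against 12.5, 14.7, and 11.7. The log2 fold change was 1.27 ± 0.31 (SE) and did not pass (adjusted p = 0.82; exact permutation p = 0.0286, the smallest possible). *Sp5* was below WT in every library, with 7.62, 5.10, 17.2, and 4.08 against 20.9, 27.4, and 19.2 (log2 fold change −1.48 ± 0.47 SE, adjusted p = 0.863; exact permutation p = 0.0571). *Cxxc4* overlapped, with 32.2, 65.3, 86.8, and 65.3 in T/T and 45.9, 60.7, and 40.5 in WT crypts (log2 fold change 0.28, 95% confidence interval −0.53 to 1.09). Enteroendocrine markers summed to 232 to 468 RPM in these T/T and 203 to 240 in these WT crypts, and none of the 8 passed. None of 7 members tested passed, against 0.0369% of 13535 genes (2 at an unadjusted p under 0.05; 0 with edgeR or DESeq2). The *Mtg16*-null and T/T effects on *Cxxc4* in distal crypts differed by 0.95 ± 0.42 on the log2 scale (SE), which did not pass, and no difference between the effects of the 2 genotypes passed for any member (7 tested, adjusted p of at least 0.955; 1 at an unadjusted p under 0.05, and 0% of 13442 genes passed).

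In proximal crypts, with 2 libraries per group, no exact p below 0.333 is possible. *Wif1* had 92.8 and 179 normalized counts in *Mtg16*-null and 98.8 and 78.6 in WT crypts, and *Cxxc4* 85.0 and 138 against 98.8 and 85.8. These overlapped, and none of 8 members passed (adjusted p of at least 0.90, limma; 0 at an unadjusted p under 0.05), against 0.0645% of 13944 genes. In T/T proximal crypts *Wif1* had 102 and 128 against 76.4 and 77.1 (log2 fold change 0.56 ± 0.24 SE, adjusted p = 0.432), and *Cxxc4* had 95.2 and 104 against 67.4 and 63.2 (0.60 ± 0.24 SE, adjusted p = 0.411). Enteroendocrine markers summed to 596.5 and 472.4 RPM in these T/T and 398 and 339.1 in these WT libraries, with none of 8 past the test, and their part was not tested. Neither gene overlapped with WT and neither passed, as none of 8 members did, against 0.232% of 13767 genes (1 at an unadjusted p under 0.05). Of 18 other canonical targets 1 passed, *Mmp7*, lower in T/T (log2 fold change −2.01 ± 0.19 SE, adjusted p = 0.038), and it lost the call without any 1 of the 4 libraries (adjusted p 0.056 to 0.273) and without the count minimum (0.0772). No difference between the effects in proximal and distal crypts passed for any member, in *Mtg16*-null (8 tested, adjusted p of at least 0.999, 0.0372% of all genes passed, 1 member at an unadjusted p under 0.05) or in T/T mice (7 tested, at least 0.922, 0.0229%, 0 members).

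**Figure D3:**
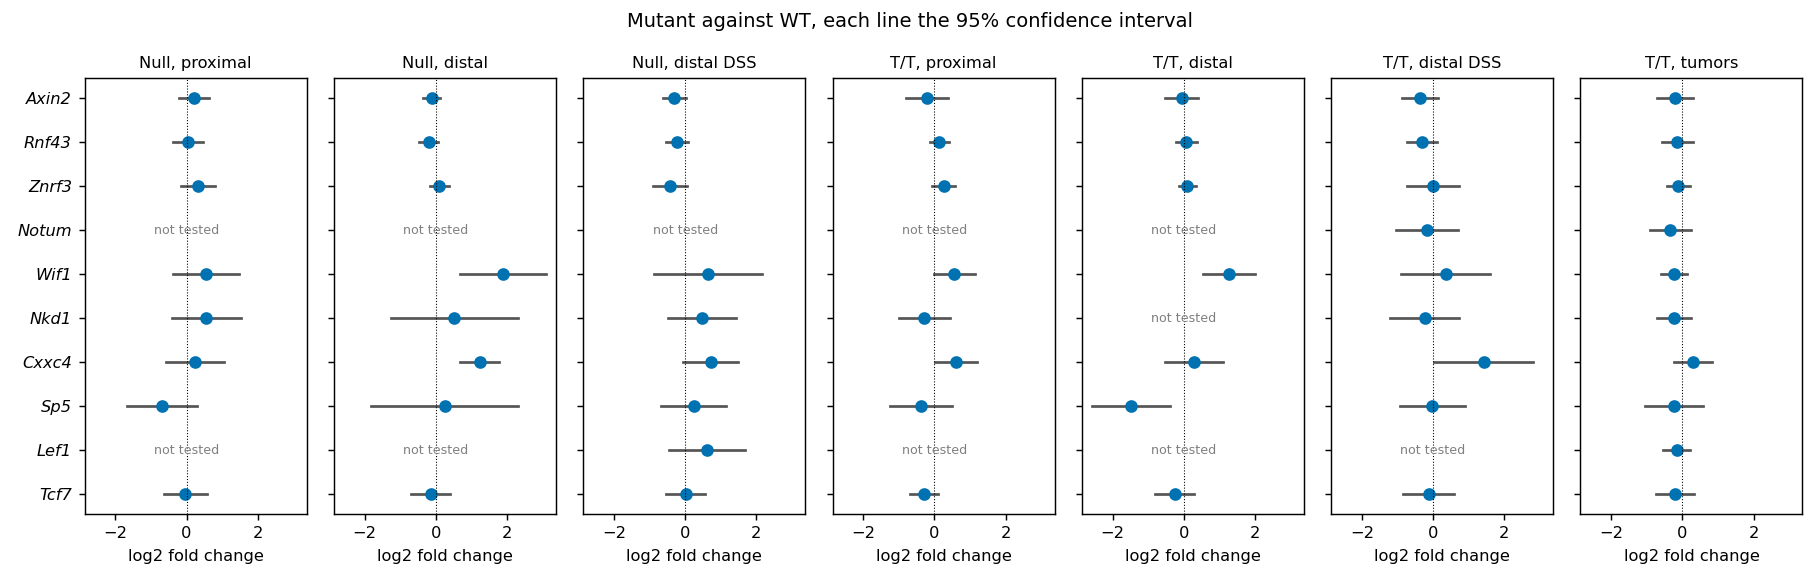
Difference between mutant and WT libraries for the members in each of 7 comparisons, as log2 fold changes with 95% confidence intervals from limma. In distal *Mtg16*-null crypts *Wif1* (1.89) and *Cxxc4* (1.23) lie furthest from 0 of the members tested there, and no member passed the test in any of the 7.

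After DSS no difference between mutant and WT crypts passed for any member. *Wif1*, apart at baseline, overlapped with WT in *Mtg16*-null crypts (0.0846 to 0.697 against 0.105 to 0.265 RPM). It also overlapped in T/T crypts (0.307 to 0.667 against 0.209 to 0.739 RPM). *Axin2* had 1508, 1702, 1823, and 1813 normalized counts in *Mtg16*-null and 2314, 2048, and 1955 in WT crypts. Every *Mtg16*-null library lay below every WT library, by −0.30 ± 0.14 on the log2 scale (SE, adjusted p = 0.442; exact permutation p = 0.0286, the smallest possible). In the same libraries 8 myeloid markers summed to 249.6 to 529.7 against 170.4 to 229 RPM (1 of 8 passed, higher) and 5 goblet cell markers to 8897 to 13970 against 13130 to 15690 (1 of 5 passed, lower), none at 0, and their part in these values was not tested. *Rnf43* did not overlap in normalized counts but did in RPM, with 1841, 2313, 2241, and 1933 against 2562, 2390, and 2377 (log2 fold change −0.24 ± 0.14 SE, adjusted p = 0.568). *Cxxc4* was at 68.8, 116, 79.0, and 65.3 against 35.7, 44.0, and 72 (log2 fold change 0.72 ± 0.34 SE, adjusted p = 0.45). Enteroendocrine markers summed to 261 to 351 RPM in *Mtg16*-null and 148 to 229 in WT crypts after DSS, without overlap, with none of 8 past the test, and their part in the *Cxxc4* values was not tested. None of 9 members passed, against 0.629% of 14476 genes (0 at an unadjusted p under 0.05; 0 with edgeR or DESeq2). With the replicate number as a block, 1271 genes passed in place of 91, none of them a member.

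In T/T mice after DSS, *Cxxc4* had 66.6, 98.7, and 34.5 normalized counts against 14.8, 15.6, and 46.5 in WT (log2 fold change 1.42 ± 0.59 SE, adjusted p = 0.565), and the groups overlapped. Enteroendocrine markers summed to 262.5, 333.8, and 253 RPM in the same T/T and 156.8, 161.1, and 244.9 in the same WT libraries, with none of 8 past the test. Goblet cell markers summed to 11850 to 12820 RPM in T/T and 19960 to 22540 in WT, and B and plasma cell markers to 15.7 to 16.4 against 4.66 to 8.33, both without overlap and with none of 5 and none of 6 past the test. The part of these lists in the member values was not tested. *Rnf43* had 2054, 2501, and 1814 against 2669, 2557, and 2623 (log2 fold change −0.31 ± 0.18 SE, adjusted p = 0.715), without overlap, whereas in RPM the groups overlapped, and 3 against 3 libraries allow no exact p below 0.1. None of 9 members passed, nor did any other gene with limma (0% of 13648; 1197 genes, 1 of them a member, at an unadjusted p under 0.05). With edgeR 0 genes passed, and with DESeq2 298, none of them a member. No difference between the *Mtg16*-null and T/T effects after DSS passed for any of 8 members (adjusted p of at least 0.763; 0 at an unadjusted p under 0.05), against 0.0148% of 13536 genes.

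DSS injury itself was compared with baseline in distal crypts of each genotype, in RPM where the groups came from separate tables. In WT mice of the T/T colony, whose 6 libraries shared a table, *Nkd1* rose from 12.1, 10.1, and 12.3 to 28.6, 19.6, and 20.4 normalized counts, without overlap (log2 fold change 0.92 ± 0.29 SE, adjusted p = 0.0494). It was the only 1 of 8 members to pass, against 35.6% of 13566 genes, and it passed by a small margin: leaving out any of the 6 libraries ended the call (adjusted p from 0.0506 without DSS replicate 3 to 0.186 without DSS replicate 1). *Notum* went from 1.21, 3.37, and 1.23 to 9.74, 11.4, and 12.2 normalized counts, also without overlap. Its mean was under 10 and it was not tested there, but it passed without that minimum (log2 fold change 2.12 ± 0.41 SE, adjusted p = 0.0159) and in the fit of all distal libraries of the colony, which it entered only through the tumors (2.16 ± 0.31 SE, adjusted p = 0.000995). *Cxxc4* was at 53.4, 69.7, and 46.8 at baseline and 13.6, 14.5, and 44.1 after DSS (log2 fold change −1.39 ± 0.48 SE, adjusted p = 0.0621), and passed in the fit of all distal libraries of the colony (adjusted p = 0.025) and without DSS replicate 3 (−1.92, adjusted p = 0.000809). Enteroendocrine markers summed to 216, 240, and 203 RPM in these baseline libraries and to 156.8, 161.1, and 244.9 after DSS. Goblet cell markers summed to 10380 to 12980 at baseline and 19960 to 22540 after DSS (4 of 5 higher), and epithelial markers to 16790 to 18290 and 19290 to 24850 (3 of 8 higher). The part of these lists was not tested. For *Axin2* the 95% confidence interval of the log2 fold change was −0.45 to 0.41.

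In *Mtg16*-null mice 5 of 9 members passed after DSS, 4 lower and 1 higher, against 29.8% of 14328 genes. The 1 that rose, *Lef1*, reached the count minimum only through the libraries after DSS, so its call adds no support to the count. *Cxxc4* fell from 3.57, 2.21, 3.83, and 3.76 to 1.21, 2.19, 1.41, and 1.13 RPM (log2 fold change −1.13 ± 0.28 SE, adjusted p = 0.0089), with the lowest baseline library just above the highest after DSS. *Wif1* fell from 1.06, 4.30, 0.714, and 0.994 to 0.0846, 0.697, 0.502, and 0.219 RPM (−2.10 ± 0.60 SE, adjusted p = 0.0191). *Znrf3* fell from 10.9, 11.7, 12.5, and 12.2 to 6.0, 10.7, 7.63, and 7.32 RPM (−0.57 ± 0.15 SE, adjusted p = 0.0146). *Axin2* fell from 38.4, 44.0, 38.3, and 36.2 to 26.4, 32.2, 32.5, and 31.5 RPM (−0.31 ± 0.11 SE, adjusted p = 0.0483). All 4 were without overlap, and 5 of 8 enteroendocrine markers also fell, from a sum of 455 to 720 RPM to 261 to 351, whose part in the *Cxxc4* and *Wif1* values was not tested.

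Fewer of these calls held when a library was left out. The count of 5 became 1 without DSS replicate 1, 2 without DSS replicate 4, and 3 without DSS replicate 3, baseline replicate 1, or baseline replicate 4. *Axin2* lost its call without any 1 of the 8 libraries (adjusted p from 0.0618 without baseline replicate 4 to 0.13 without DSS replicate 1). *Wif1* lost it without DSS replicate 1 (0.0701) or 4 (0.053), and *Znrf3* without DSS replicate 1 (0.0543), while *Cxxc4* kept it in all 15 settings tried. *Rnf43*, at 0.0559, passed without baseline replicate 3 (0.0231) or DSS replicate 2 (0.0355), and *Sp5* rose without the library labeled baseline replicate 2 (log2 fold change 2.11, adjusted p = 0.00767, against 1.23 and 0.206 with it). Without that library *Cxxc4* (−1.32, adjusted p = 0.00263) and *Wif1* (−1.54, adjusted p = 0.0393) still passed.

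*Lef1* was the gene that rose, from 0.0760, 0.0919, 0.173, and 0.107 to 0.803, 0.401, 0.405, and 0.530 RPM (log2 fold change 2.11 ± 0.71 SE, adjusted p = 0.0373), without overlap. This rests on 115 reads in 4 libraries against 21 in 4, a ratio of 4.59 with a 95% counting interval of 2.87 to 7.70, and at distal baseline alone the gene was under the minimum and not tested. The call was lost without DSS replicates 1, 3, or 4 or baseline replicates 1, 2, or 4 (adjusted p 0.052 to 0.115). Keratins of squamous epithelium, a tissue that lines the anal canal, were high in the same libraries. The 8 squamous markers (*Krt5*, *Krt14*, *Trp63*, and others, a list chosen after their values were seen) summed to 336 to 878 RPM in *Mtg16*-null and 267 to 413 in WT crypts of that colony after DSS, against 4.69 to 15.7 in distal crypts of that colony at baseline and 7.68 to 27.0 in the T/T colony after DSS. No marker was at 0 in the null colony after DSS, and 6 of 7 tested were higher in *Mtg16*-null and 5 of 7 in WT crypts. *Lef1* was at 0.624, 0.246, and 0.236 RPM in those WT crypts and at 0.0229 to 0.235 in T/T crypts after DSS. All 8 myeloid markers rose as well in *Mtg16*-null crypts, from a sum of 54.2 to 183 to one of 250 to 530 RPM. The part of either list in the *Lef1* values was not tested.

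**Figure D4:**
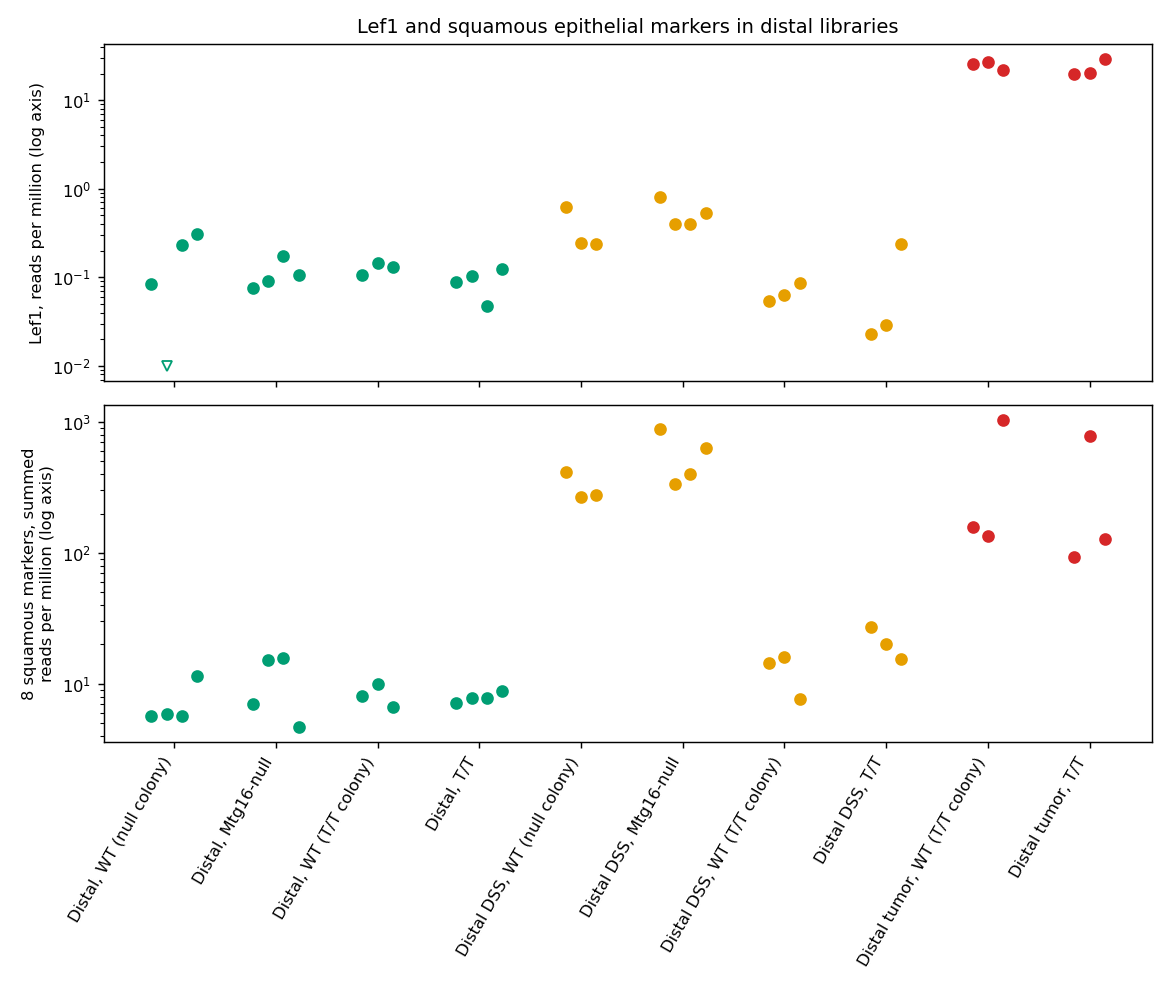
*Lef1* (top) and the sum of 8 squamous epithelial markers (bottom), both in RPM on log axes, in the distal libraries of 10 groups, with an open triangle for a library at 0. *Lef1* is highest among crypts in *Mtg16*-null mice after DSS (0.401 to 0.803), where the squamous sum is 336 to 878, and is higher still in tumors (19.6 to 28.9).

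In WT mice of the null colony none of 9 members passed after DSS, against 4.7% of 14328 genes (1 at an unadjusted p under 0.05; 0 with edgeR or DESeq2). *Rnf43* was lower in every DSS library, at 42.9 to 44.8 against 50.6 to 57.2 RPM (log2 fold change −0.28 ± 0.12 SE, adjusted p = 0.207), and *Wif1* at 0.105 to 0.265 against 0.281 to 0.391 (−0.86 ± 0.65 SE, adjusted p = 0.468). No difference in the response to DSS between *Mtg16*-null and WT mice passed for any of 9 members (adjusted p of 1 for each; 1, *Znrf3*, at an unadjusted p under 0.05; 0% of 14328 genes), so the calls in *Mtg16*-null crypts are not shown to be particular to them.

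In T/T mice 2 of 10 members passed after DSS, both higher, against 16.4% of 14945 genes. Both were scarce at baseline, where *Sp5* had 9, 5, 18, and 4 reads (37, 26, and 27 after DSS) and *Notum* entered through the tumors, so the count stands as a description only. *Sp5* rose from 0.201, 0.129, 0.428, and 0.0988 to 0.847, 0.754, and 0.488 RPM, without overlap (log2 fold change 1.80 ± 0.41 SE, adjusted p = 0.00769), and lost its call with edgeR (0.0941). *Notum* rose from 0.0670, 0.103, 0.0952, and 0.0741 to 0.160, 0.232, and 0.253 RPM (1.19 ± 0.29 SE, adjusted p = 0.0118). This rests on 29 reads in 3 libraries against 14 in 4, a ratio of 2.58 with a 95% counting interval of 1.32 to 5.28, and the gene was tested only because the tumors of the same fit raise its mean. The call was lost with DESeq2 (0.249) and without DSS replicate 3 (0.055). *Nkd1*, at 0.0645, passed without DSS replicate 2 (0.0115) or baseline replicate 2 (0.033). *Lef1* went from 4, 4, 2, and 5 reads at baseline to 1, 1, and 13 after DSS, too few to give it a direction, although it too was tested through the tumors and passed as lower without DSS replicate 3 (log2 fold change −1.21, adjusted p = 0.0217). No difference in the response to DSS between T/T and WT mice passed for any of 10 members (smallest adjusted p = 0.311, for *Sp5*, with a difference of 1.51 ± 0.60 SE on the log2 scale; 2 at an unadjusted p under 0.05), against 0.401% of 14945 genes. *Mmp7* was among those genes, with a response larger by 3.27 ± 0.53 in T/T mice (log2 scale, SE, adjusted p = 0.0126).

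Beyond the 10 genes, 7 of 18 other canonical targets rose after DSS and 2 fell in WT mice of the T/T colony, where 1897 of all 13566 genes rose and 2936 fell. In WT mice of the null colony 1 of 18 rose and 0 fell, near the 4.7% of all genes called. In *Mtg16*-null mice 7 of 18 rose and 2 fell (2331 and 1934 of 14328 genes), and in T/T mice 9 of 19 rose and 0 fell (1544 and 904 of 14945 genes). Of the 17 also tested in the baseline crypts of the T/T colony, 8 rose and 0 fell in T/T mice. *Tnfrsf19*, called higher in T/T mice (log2 fold change 2.90) and in WT mice of that colony (2.00), was not tested at baseline, so its calls add no support. The median log2 fold changes of the targets in the 4 groups were 0.44, 0.25, 0.40, and 0.41, against 0.004, 0.011, 0.011, and −0.046 over all genes, with no test of the list. *Mmp7* rose most in each (log2 fold changes 2.16, 2.90, 4.40, and 5.44). Among ligand genes, with *Wls*, which carries Wnt proteins to the surface, 3 of 11 rose and 2 fell in *Mtg16*-null mice and 3 of 11 rose and 0 fell in WT mice of the null colony. In T/T mice 0 of 12 rose and 3 fell, and in WT mice of the T/T colony 0 of 5 rose and 1 fell. Those that rose reached the count minimum only through the libraries after DSS: of the 6 also tested at baseline, 0 rose in either group of the null colony, and *Wls* (log2 fold change −0.55 ± 0.13 SE) and *Wnt8b* (−3.13 ± 0.73 SE) fell in *Mtg16*-null mice. *Wnt7b* was at 0 to 0.0230 RPM in that colony's distal baseline libraries and at 1.87 to 5.77 after DSS, in the libraries that also held the squamous keratins. *Wnt4* was at 0 to 0.0849 RPM at baseline and 2.22 to 8.22 after DSS in the null colony, and at 0.0172 to 0.181 after DSS in the T/T colony.

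Tumors differed from crypts in nearly all members. In WT mice 9 of 10 rose and none fell, against 28.2% of 14945 genes that rose and 52% that changed in either direction. In T/T mice the same 9 rose, against 29.7% that rose and 55.3% that changed. *Notum*, *Lef1*, and *Nkd1* were below the count minimum in the baseline crypts of that colony and passed it through groups where they were higher, such as the tumors. They had to differ, and no count over the members stands as support. The median log2 fold change of all genes was 0.047 in WT and 0.121 in T/T mice, far below those of the 9. Tumors were homogenized whole and had another name prefix, so tumor cells, stroma, handling and sequencing cannot be told apart here.

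*Axin2*, the destruction complex scaffold, had 277, 401, and 379 RPM in WT tumors and 51.5, 36.1, and 37.7 in WT crypts. In T/T mice it had 286, 240, and 411 in tumors and 54.2, 44.7, 38.6, and 29.0 in crypts. No tumor overlapped with a crypt library, and the log2 fold changes were 2.71 ± 0.22 (SE, adjusted p = 3.22e-08) and 2.58 ± 0.20 (SE, adjusted p = 2.36e-08). The receptor ligases rose less far: *Rnf43* from 39.5, 47.4, and 45.7 to 196, 245, and 246 RPM in WT (2.01 ± 0.17 SE) and by 1.81 ± 0.16 in T/T mice, and *Znrf3* from 10.9, 11.9, and 10.8 to 64.3, 82.1, and 70.4 RPM in WT (2.32 ± 0.21 SE) and by 2.13 ± 0.20 in T/T mice.

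The secreted inhibitors went from traces to high levels. *Notum* had 1, 3, and 1 reads in the WT crypts and 7128, 11750, and 6494 in the WT tumors, that is 0.0263, 0.0717, and 0.0258 against 155, 216, and 202 RPM. The ratio of pooled RPM was 4530 (95% counting interval 1940 to 14000) in WT and 1950 (1160 to 3560) in T/T mice, whose crypts held 3, 4, 4, and 3 reads. *Wif1* rose from 0.316, 0.359, and 0.284 to 319, 422, and 317 RPM in WT mice and from 0.737, 0.697, 1.38, and 0.642 to 310, 252, and 353 in T/T mice. Its ratio was 1130 (820 to 1590) in WT and 359 (305 to 425) in T/T mice, whose crypts lay above the WT crypts in every library without passing the test. The difference between these ratios was not tested. *Nkd1*, which acts on Dishevelled inside the cell, rose from 0.263, 0.215, and 0.258 to 372, 535, and 447 RPM in WT mice, a ratio of 1870 (1300 to 2790), and by 1680 (1230 to 2350) in T/T mice. The log2 fold changes of these 3 genes ranged from 8.16 to 11.32 with SEs of 0.29 to 0.39.

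*Sp5* rose from 0.526, 0.669, and 0.465 to 38.5, 97.9, and 74.1 RPM in WT mice (log2 fold change 6.49 ± 0.44 SE) and by 7.77 ± 0.41 in T/T mice. *Lef1* rose from 0.105, 0.143, and 0.129 to 25.8, 27.2, and 22.1 RPM in WT mice (7.07 ± 0.51 SE) and by 7.40 ± 0.48 in T/T mice. *Tcf7* rose from 4.63, 5.26, and 4.88 to 44.5, 69.1, and 50.01 RPM in WT mice (3.08 ± 0.27 SE) and by 3.16 ± 0.25 in T/T mice. T cell markers, which could carry both factors, summed to 8.97 to 23.3 RPM in tumors and 6.30 to 13.7 in baseline distal crypts of that colony, with 2 of 6 higher in WT and 3 of 6 in T/T tumors and none at 0, and their part was not tested.

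*Cxxc4* alone did not pass, with 2.23, 2.39, and 3.17 RPM in WT tumors against 1.16, 1.48, and 0.982 in crypts (0.74, 95% confidence interval −0.24 to 1.71, adjusted p = 0.199) and 2.88, 3.43, and 3.25 against 0.848, 1.65, 2.17, and 1.58 in T/T mice (0.77, −0.14 to 1.68, adjusted p = 0.143). No tumor overlapped with a crypt library of its genotype. In WT mice *Cxxc4* passed with edgeR (adjusted p = 0.0458) and when its own 2 groups alone were fitted (0.042). All 8 enteroendocrine markers were lower in tumors of either genotype, at a sum of 25.2 to 154 RPM, against 203 to 468 in crypts.

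**Figure D5:**
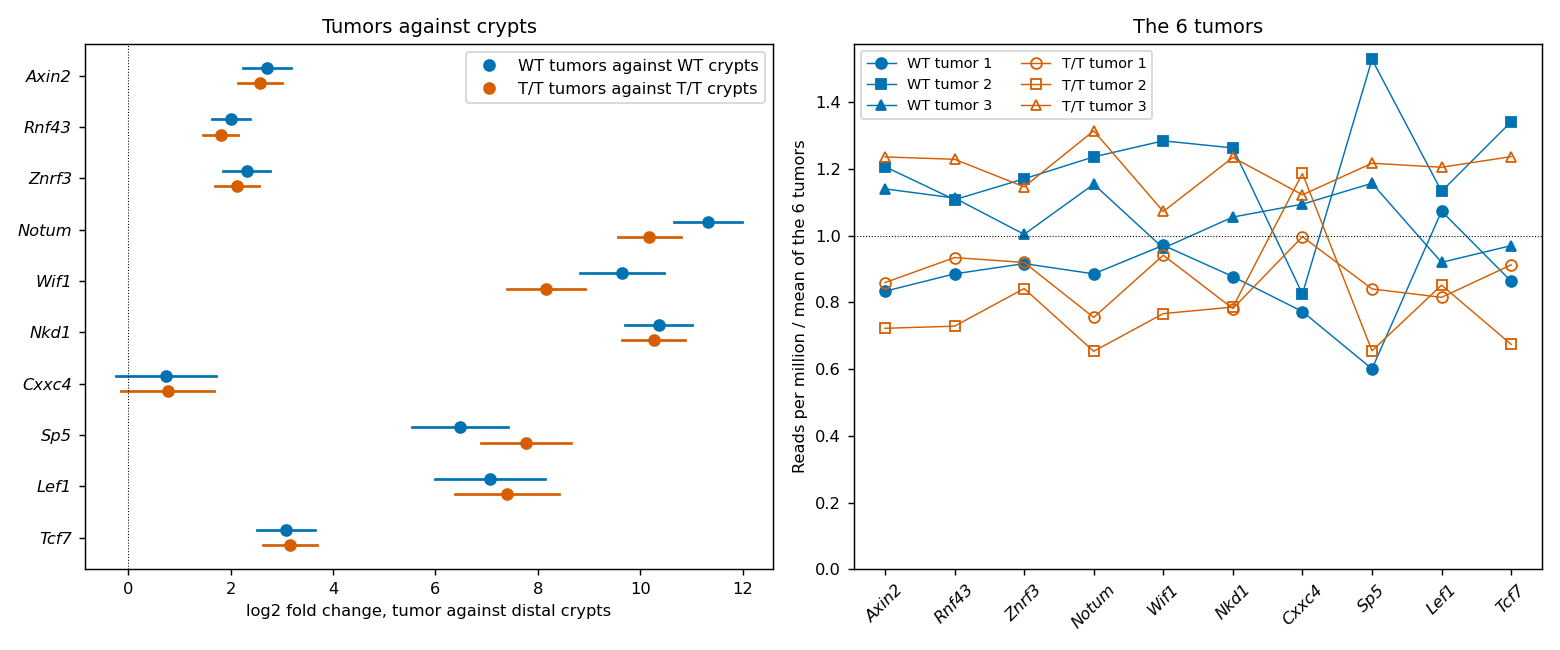
Log2 fold change from distal crypts to tumors of the 10 members in WT and T/T mice of the T/T colony, with 95% confidence intervals from limma, and, for each of the 6 tumors, the level of each member relative to its mean over them. *Notum*, *Nkd1*, and *Wif1* change most, by 8.16 to 11.32, *Axin2*, *Rnf43*, and *Znrf3* by 1.81 to 2.71, and *Cxxc4* by 0.74 and 0.77, which did not pass.

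The rest of the pathway is given by list for tumors of WT mice, where 52% of all genes tested changed and 28.2% rose, with no test of a list. Genes that met the count minimum only through other groups, such as the tumors, had to differ, so the counts that follow are of genes also tested in the baseline crypts of the colony. Of 17 other canonical targets 12 rose and 1 fell (median log2 fold change 1.22), with *Mmp7* up (9.63 ± 0.39 SE) and the homeobox gene *Cdx1* down (−2.06 ± 0.17 SE). Of 17 receptor genes 9 rose and 3 fell (median 0.60), among the latter the R-spondin receptor gene *Lgr4* (−1.52 ± 0.37 SE). Of 19 genes of the destruction complex and Dishevelled 6 rose and 2 fell (median 0.27), and of 14 nuclear partners 5 rose and 4 fell (median −0.05), with *Tle2* up (2.14 ± 0.25 SE) and *Tcf7l1*, a repressive TCF, down (−1.25 ± 0.17 SE). Of 5 other inhibitors 3 rose and 0 fell (median 0.59), and of 4 ligand genes 2 rose and 1, *Wnt8b*, fell (−2.74 ± 0.69 SE).

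Among the genes left out of these counts, 5 that were near 0 in WT distal crypts are given in RPM. *Apcdd1*, a membrane inhibitor, was at 0 to 0.207 in WT crypts and 122 to 362 in WT tumors. The secreted inhibitor *Sfrp1* was at 0 to 0.0717 and 45.8 to 61.2, the ligand gene *Wnt5a* at 0 to 0.0263 and 51.8 to 63.8, and *Wnt2b* at 0 to 0.0478 and 4.24 to 6.36. *Nkd2*, the relative of *Nkd1*, was at 0 to 0.0239 and 1.78 to 2.15. All 8 fibroblast markers rose and 7 of 8 epithelial markers fell, and the part of stroma in these values was not tested.

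Between T/T and WT tumors no member passed the test, and no other gene did with limma (0% of 15900; 392 genes, none of them a member, at an unadjusted p under 0.05). With edgeR 0 genes passed, and with DESeq2 30, none of them a member. The log2 fold changes ran from −0.34 (*Notum*) to 0.29 (*Cxxc4*), 9 of 10 below 0, with 95% confidence intervals inside −1.05 to 0.82 and an adjusted p of 0.998 for each. Their median was −0.21, against −0.002 over all genes. Tumors of 1 genotype also differed among themselves. T/T tumor 3 was among the 3 highest of the 6 tumors for 10 of 10 members, WT tumor 2 for 9, and WT tumor 3 for 8, whereas WT tumor 1 was for 2, T/T tumor 2 for 1, and T/T tumor 1 for none. Most members moved together across tumors, so 9 of 10 below 0 is not 9 separate observations. The highest tumor had 1.39 (*Znrf3*) to 2.54 (*Sp5*) times the level of the lowest.

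As a description, the genes whose levels followed *Axin2* most closely over the 42 libraries (Spearman correlation of log2 (RPM + 1), 12984 genes with a mean of at least 1 RPM or members) were *Adcy5* (0.782), *Bex1* (0.758), *Zdhhc8* (0.753), *Rtl8b* (0.748), and *5730409E04Rik* (0.745). Among the other members *Tcf7* came first, at rank 194 (0.572), then *Wif1* at rank 1010 (0.491), and *Lef1* last, at rank 5972 (0.241). The 42 points share library preparation and fall into crypts and tumors. Over the 36 crypt libraries the correlation with *Axin2* was 0.32 for *Tcf7*, 0.192 for *Wif1*, and between −0.204 and 0.053 for the other 7 members.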

How the data were processed

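Paired-end RNA sequencing of mouse colon crypts and tumors was analyzed in 42 libraries. The authors trimmed reads with fastp 0.20.0, estimated transcript abundance with Salmon 1.3.0 against GENCODE vM21 (mm10/GRCm38), and normalized with DESeq2 1.26.0 in R 3.6.3, per the study's methods and the submitters' processing notes. The signal values the authors deposited are normalized counts, that is, reads per gene divided by 1 size factor per library, scaled within each of 9 tables. The tables also hold the authors' mean, log2 fold change, and p-values, which were not used.

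Whole reads were recovered in 40 libraries by multiplying with the size factor that makes values whole (tolerance 0.1), for 32231389 to 74661922 reads per library, and the 20 pairs of tables that share a library agreed in all genes both list. Counting intervals cover counting error only. Reads-per-million (RPM) are values divided by the library total.

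Within a table, limma 3.58.1 (trend) was run on log2 (normalized count + 1) for genes with a mean of at least 10, with p-values adjusted by Benjamini-Hochberg across all genes tested in a comparison (threshold 0.05). Fold changes are on that scale and understate changes of scarce genes. Groups in separate tables were compared in 1 limma fit of all distal groups of a colony on TMM-scaled recovered reads (edgeR 4.0.16). Differences of effects were contrasts in that fit or differences of 2 log2 fold changes over their summed errors. Exact permutation tests were two-sided. DESeq2 1.42.0 and edgeR on recovered reads, another pseudocount (0.1), no minimum, left-out libraries, and a replicate block were alternatives. The tests were checked on simulated counts. All members were named, with at most 2 genes per direction and pathway list, those called with the largest fold change. The members and lists were chosen with earlier results of these data known, and the squamous list after its values were seen. Replicates carry separate labels, and where these are not separate mice the p-values measure technical spread.

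Of the comparisons with 3 or more same-numbered pairs, libraries deviated together in every pair (correlation over 0.1) only for *Mtg16*-null against WT after DSS (correlations 0.55, 0.46, and 0.32). Strand was not stated, so reads of antisense genes overlapping exons of *Axin2*, *Cxxc4*, *Lef1*, and *Notum* cannot be separated.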

Additional observations from a re-analysis of the deposited data

Results flagged for a closer look

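Of 40 values of a gene in a group of 4 libraries, 7 had a library set apart from the other 3 by Dixon's ratio at 95%, where chance alone flags about 1 in 20. The library labeled *Mtg16*-null replicate 2 at distal baseline accounted for 3 of them: *Wif1* was at 4.30 RPM against 0.714 to 1.06 in the others, *Sp5* at 1.86 against 0.0760 to 0.303, and *Cxxc4* at 2.21 against 3.57 to 3.83. *Mtg16*-null replicate 1 after DSS had the lowest *Axin2* (26.4 RPM against 31.5 to 32.5) and the highest *Notum* (0.254 against 0.0522 to 0.0809). In distal T/T crypts at baseline, replicate 3 had 1.38 RPM of *Wif1* (the others 0.642 to 0.737) and replicate 1 had 6.74 RPM of *Tcf7* (the others 3.45 to 3.82).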

How the results depend on the processing

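The count of members called in tumors was 9 under each left-out library and each other setting, except 10 in WT mice with edgeR and with the 2 groups alone (*Cxxc4* added). In distal *Mtg16*-null crypts at baseline, DESeq2 called 2 members instead of 0, and leaving out a library gave 0 to 1. Between segments, prefix 4149 alone gave 3 instead of 6, the prefix as a covariate 4, and left-out libraries gave 4 to 6. For DSS in WT mice of the T/T colony, the 1 call became 0 with a pseudocount of 0.1 and 3 in the fit of all distal libraries of the colony, and left-out libraries gave 0 to 1. In *Mtg16*-null mice the 5 calls after DSS became 3 with edgeR, 3 with those 2 groups alone, and 1 to 5 without a library. In T/T mice the 2 calls became 0 with edgeR, 1 with DESeq2, 0 with those 2 groups alone, and 2 to 3 without a library. The cause was not tested, except that a left-out library also means fewer samples.

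With the replicate number as a block, the count for DSS in WT mice of the T/T colony became 0 (*Nkd1*, adjusted p = 0.112), *Axin2* in *Mtg16*-null mice after DSS reached 0.0572 and *Rnf43* between segments 0.0562. For *Mtg16*-null against WT after DSS, where same-numbered libraries deviated together, the block changed no member's call (1271 genes in all in place of 91). The labels number the replicates and do not state that these numbers are pairs, here or elsewhere. Over the whole tables, leaving out a library moved the calls for DSS in WT mice of the T/T colony from 4833 to between 1 and 9086, for distal *Mtg16*-null crypts from 33 to between 2 and 143, for DSS in T/T mice from 2448 to between 1478 and 5269 (555 with the 2 groups alone), for DSS in *Mtg16*-null mice from 4265 to between 2105 and 5327, for *Mtg16*-null against WT after DSS from 91 to between 28 and 106, for DSS in WT mice of the null colony from 674 to between 318 and 915, for T/T crypts from 32 to between 0 and 27 (proximal; 2 without the count minimum, 151 with the block) and from 5 to between 0 and 8 (distal), and for the T/T difference in DSS response from 60 to between 17 and 177. DESeq2 called 224 genes in place of 33 for the distal *Mtg16*-null comparison, 780 in place of 91 for *Mtg16*-null against WT after DSS, 1364 in place of 674 for DSS in WT mice of the null colony, 51 in place of 5 for distal T/T crypts, and 298 in place of 0 for T/T against WT after DSS, and the prefix as a covariate gave 3189 in place of 5824 between segments. Of 40 member values called under some setting, 39 kept 1 sign throughout, the exception being *Lef1* in T/T mice after DSS (−1.21 to 0.22), and 52 of 132 never called changed it.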
